A study of Mus musculus with 10 samples.

Results

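The nuclear lamina and the LINC (linker of nucleoskeleton and cytoskeleton) complex were examined through 10 genes, taken as a named set: the lamin genes Lmna, Lmnb1 and Lmnb2, the lamin B receptor gene Lbr, the emerin gene Emd, the nesprin genes Syne1, Syne2 and Syne3, and the SUN genes Sun1 and Sun2. All 10 were found by Ensembl identifier among the 54232 genes of the deposited table and all 10 were among the 14289 genes tested. RNA came from a calf muscle, the gastrocnemius according to the labels and the gastrocnemius together with the plantaris according to the text of the study, of 5 homozygous desmin knock-out mice (genotype Des -/-, strain B6J.129Sv-Destm1Cba/Cscl) and 5 wild-type littermates (Des wt/wt, labelled with the same strain) at 3 months of age. The deletion is present in every cell of the animal, and the labels name no other allele and no treatment in either group. The methods of the study speak of RNA pooled from 5 muscles per genotype, but every mouse has its own column in the table, and columns were treated as replicates.

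Values are the authors' regularized log (rlog) values from DESeq2. These are log2 expression values adjusted for library size, in which each gene is pulled towards its own average, so differences understate log2 fold changes, above all in genes with few reads. Read depth is unknown from such values. Differences are given as knock-out minus wild-type on this log2 scale, with adjusted p values from limma over all 14289 tested genes and a threshold of 0.05. As a check of the labels, Des lay between 11.76 and 11.89 in the 5 knock-out mice and between 16.10 and 17.74 in the 5 wild-type mice. Wild-type mouse 3 stood apart from the other mice. Its summed linear level was 1.48 times the median mouse (others 0.95 to 1.06 times), and it correlated with its genotype at 0.982 on average, against 0.989 to 0.991 for the remaining wild-type mice. It held the highest or the lowest wild-type value of 7 of the 10 genes, although any mouse holds such a value in some genes. The share over all tested genes is not given here. Results are given with and without wild-type mouse 3.

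The lamina is a meshwork of intermediate filament proteins under the inner nuclear membrane. A-type lamins, all made from Lmna, and B-type lamins, from Lmnb1 and Lmnb2, form separate but interacting networks, and the lamin B receptor and emerin are inner nuclear membrane proteins that bind lamins and chromatin. SUN proteins span the inner nuclear membrane and bind the KASH domains of nesprins in the outer membrane, and this bridge passes force between the cytoskeleton and the lamina. Nesprin-1 and nesprin-2 bind actin and microtubule motors, while nesprin-3 binds plectin, a cytolinker that also binds desmin filaments. In muscle fibers the bridge anchors myonuclei, and variants of LMNA, EMD, SYNE1, SYNE2, FHL1 and TMEM43 are linked to Emery-Dreifuss muscular dystrophy.

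Expressed per kilobase of annotated exon, with levels as 2 to the power of the rlog value, Sun2 was the most abundant of the 10 transcripts in wild-type muscle with 1200 ± 96.3 (SD, n = 5), and Syne3 the least abundant with 6.49 ± 1.43 (SD, n = 5). Between them came Lmna with 535 ± 110, Emd with 522 ± 139, Sun1 with 227 ± 17.6 and Lbr with 150 ± 21.5 (SD, n = 5 each). Syne1 had 70.5 ± 14.7, Lmnb2 45.2 ± 3.9, Lmnb1 44.6 ± 8.78 and Syne2 30.7 ± 3.13 on the same scale (SD, n = 5 each). The ranges of the 5 wild-type mice overlapped between Lmna and Emd, between Lmnb2 and Lmnb1 and between Lmnb1 and Syne2, so the order within these pairs is not larger than the spread. In desmin knock-out muscle the genes came in the same order, but Lmna, with 791 ± 56.7 (SD, n = 5, range 722 to 873), no longer overlapped Emd, with 477 ± 9.55 (SD, n = 5, range 468 to 490). Lmnb1 (36.2 to 43.6) and Syne2 (25.8 to 27.3) did not overlap there either, whereas Lmnb2 and Lmnb1 still did. The exonic length used joins the exons of all isoforms, 40.5 kb for Syne1 and 26.7 kb for Syne2, so genes with many isoforms may be ranked too low.

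**Figure D1:**
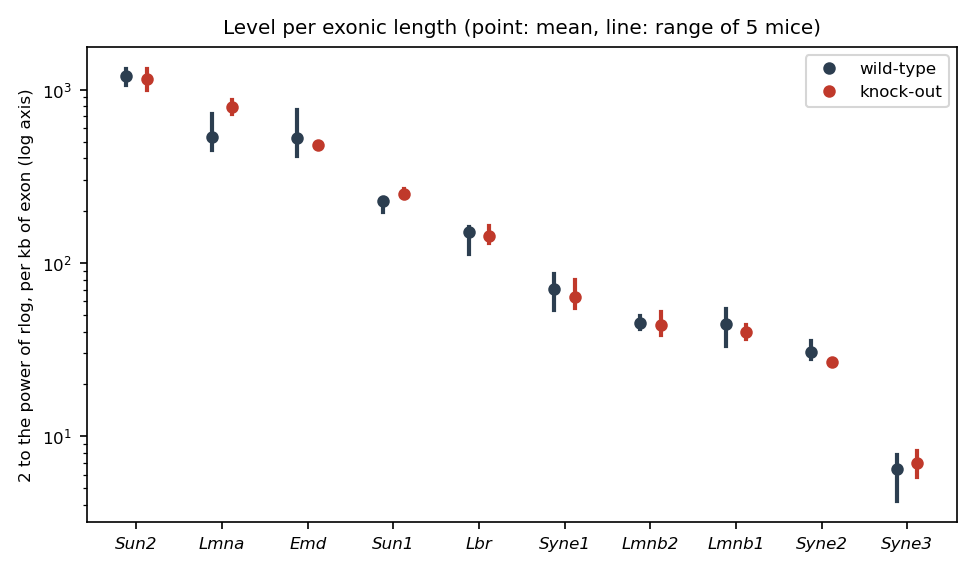
Level of each of the 10 genes per kilobase of annotated exon (2 to the power of the rlog value, log axis) in wild-type (dark) and desmin knock-out (red) muscle, points being means and lines the range of 5 mice. Sun2 is highest and Syne3 lowest in both genotypes, and Lmna is the gene whose knock-out mean (791) lies furthest from its wild-type mean (535).

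Of the 10 genes, 1 was higher and none was lower in desmin knock-out muscle at an adjusted p under 0.05 (limma). Over all tested genes this held for 13.7%, with 7.7% higher and 5.99% lower, so the share among the 10 genes was near the background. The median difference of the 10 genes was -0.06, and that of all tested genes was -0.003. At an unadjusted limma p under 0.05 there were 2 of the 10 genes, Lmna and Syne2, compared with 27.6% of all tested genes. Of the differences, 3 were positive and 7 negative.

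**Figure D2:**
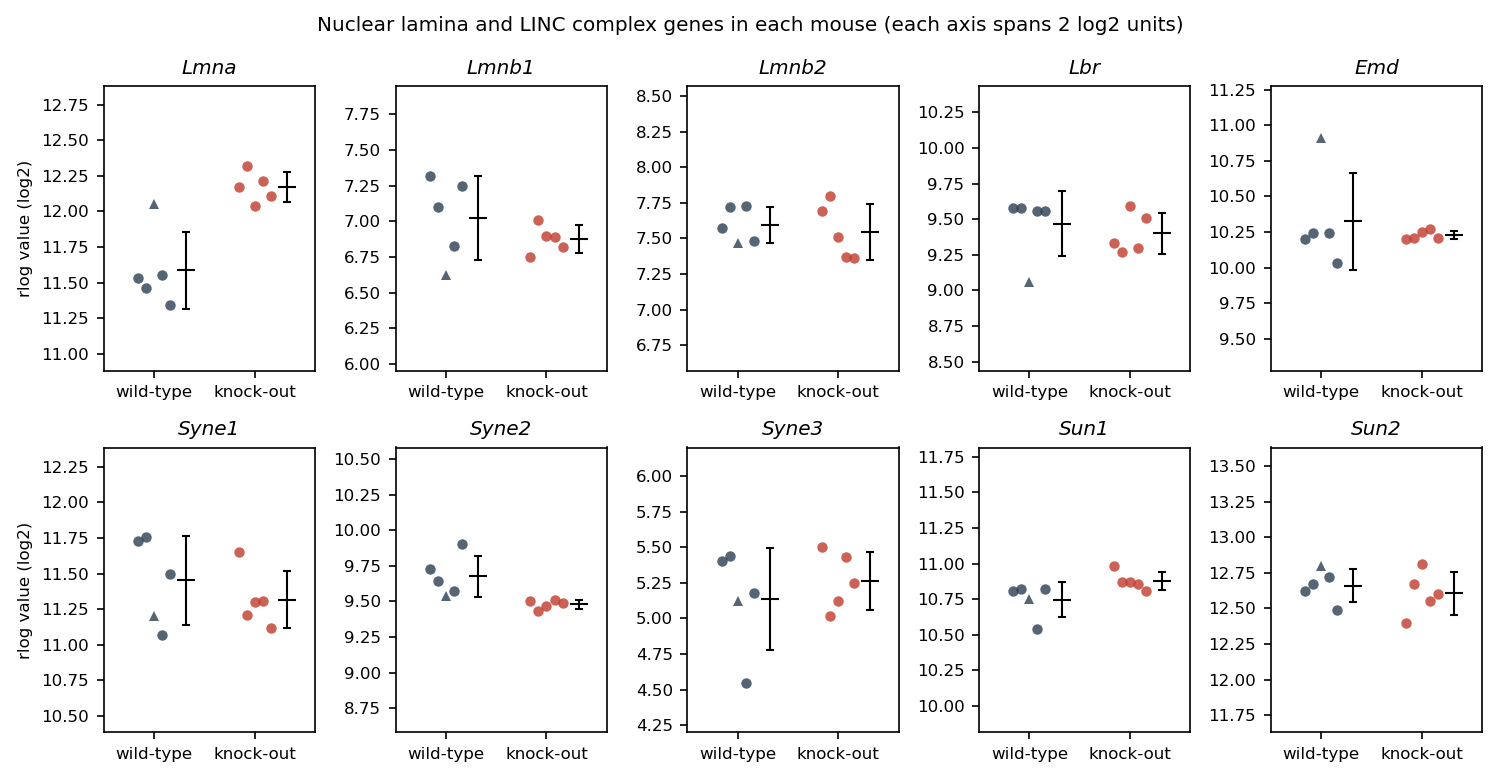
Deposited rlog values (log2) of the 10 genes in each of 5 wild-type (dark) and 5 desmin knock-out (red) mice, the triangle marking wild-type mouse 3 and bars the mean ± SD. Each axis spans the same 2 log2 units, and Lmna is the gene with the largest shift, with knock-out values of 12.04 to 12.32 against 11.34 to 11.55 in the wild-type mice other than mouse 3.

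Lmna (ENSMUSG00000028063, GRCm38 chromosome 3, 88480147 to 88509956, reverse strand) encodes lamins A and C, which are splice forms of one gene and were counted together. It was the gene that passed, with rlog values of 12.17, 12.32, 12.04, 12.21 and 12.11 in knock-out mice 1 to 5. The values in wild-type mice 1 to 5 were 11.53, 11.46, 12.05, 11.55 and 11.34. Wild-type mouse 3 alone reached the knock-out values and lay just above the lowest of them, whereas the other wild-type mice lay well below. The difference was 0.58 (standard error, SE, 0.12, 95% confidence interval 0.32 to 0.85, limma adjusted p = 0.00611), or 1.5-fold on the linear scale of the shrunken values. Taken alone, Lmna had a p of 0.0159 in a two-sided exact permutation test over the 10 mice. Among all tested genes, 95.1% had a lower difference than Lmna, and 88.8% had a lower wild-type rlog mean, a comparison that is not corrected for length. Without wild-type mouse 3, the wild-type mean was 11.47 ± 0.09 (SD, n = 4) and the difference was 0.70 (limma adjusted p = 2.6e-05), and the genotypes no longer overlapped. Without this mouse, 17.4% of all tested genes passed and 17.8% did not overlap. Lmna passed in each of 18 alternative fits, with differences between 0.52 and 0.70 and adjusted p values from 9.4e-07 to 0.0225 (limma). No other annotated gene overlaps Lmna.

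Since Lmna was the gene that passed, the sequence before its 2 RefSeq starts is shown. Both lie within the gene as GENCODE annotates it, whose outermost transcript begins at 88509956, and the sequence before that start is not shown. The RefSeq windows on GRCm38.p6 hold 250 bases before each start, and bases that lie in an annotated exon of the gene were left out, which shortened the window of the more upstream of the 2 starts to 216 bases. The bases left out lie next to that start, from 88503353 onwards, so the printed sequence ends short of it. Both sequences are written 5′ to 3′ along the gene, on the reverse strand, and capitals mark matches on either strand to the motifs that were searched.
Lmna, upstream start, chr3:88503387-88503602: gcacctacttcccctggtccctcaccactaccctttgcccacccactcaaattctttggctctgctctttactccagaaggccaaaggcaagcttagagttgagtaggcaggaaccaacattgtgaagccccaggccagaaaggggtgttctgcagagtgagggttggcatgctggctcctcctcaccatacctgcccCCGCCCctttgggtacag
Lmna, downstream start, chr3:88493313-88493562: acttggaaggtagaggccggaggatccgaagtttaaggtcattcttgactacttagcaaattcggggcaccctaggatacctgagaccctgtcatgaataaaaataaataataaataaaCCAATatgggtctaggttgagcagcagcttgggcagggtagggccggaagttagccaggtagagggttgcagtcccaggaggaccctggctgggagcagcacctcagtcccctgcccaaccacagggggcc
Of the 4 motifs searched, the window of the upstream start held a GC box (GGGCGG, here on the other strand), while 32.7% of all 32851 promoter windows of 250 bases hold one. The window of the downstream start held a CCAAT box (CCAAT), found in 33.8% of them. Neither held a TATA box (TATAAA, 12.4% of all windows) or an AP-1 element (TGANTCA, 6.75% of all windows). These matches are a description of letters, and the gene-level values do not tell which start was used.

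The B-type lamins did not pass. Lmnb1 (ENSMUSG00000024590) had rlog values of 6.75, 7.01, 6.90, 6.89 and 6.82 in knock-out mice 1 to 5 and 7.32, 7.10, 6.62, 6.83 and 7.25 in wild-type mice 1 to 5. Knock-out values lay inside the wide wild-type range, below 3 of the 5 wild-type mice. The difference was -0.15 (95% confidence interval -0.44 to 0.15, limma adjusted p = 0.527) and -0.25 without wild-type mouse 3, which had the lowest value of all mice (limma adjusted p = 0.176). Lmnb2 (ENSMUSG00000062075, chromosome 10, 80901203 to 80918245) ranged from 7.36 to 7.80 in knock-out and from 7.47 to 7.73 in wild-type mice. Its difference of -0.05 (95% confidence interval -0.29 to 0.20, limma adjusted p = 0.829) was smaller than the SD of 0.12 between wild-type mice. With levels taken per exonic length, Lmna made up 90.4% ± 0.557 (SD, n = 5) of the summed lamin transcripts in knock-outs, against 85.2% ± 3.21 (SD, n = 5) in wild types. The ranges overlapped, with 89.7% to 91.1% in knock-out and 82.8% to 90.7% in wild-type mice.

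Lbr (ENSMUSG00000004880) encodes an inner nuclear membrane protein that tethers heterochromatin to the lamina in many cells and gives way to A-type lamins in differentiated tissue. It lies on chromosome 1 from 181815335 to 181843046, about 106 Mb from the targeted gene. Wild-type mice 1, 2, 4 and 5 had closely spaced values of 9.58, 9.58, 9.56 and 9.56, and wild-type mouse 3 had 9.06. The knock-out values were 9.33, 9.27, 9.59, 9.30 and 9.51 in mice 1 to 5, and 1 of them lay above all wild-type values. The difference was -0.07 (95% confidence interval -0.32 to 0.19, limma adjusted p = 0.743). Without wild-type mouse 3 it was -0.17 (SE 0.08, limma adjusted p = 0.179).

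Emd (ENSMUSG00000001964, chromosome X, 74254687 to 74261548) encodes emerin, which binds lamin A and barrier-to-autointegration factor. Its values in knock-out mice 1 to 5 were 10.20, 10.21, 10.25, 10.27 and 10.21, with an SD of 0.03. Wild-type mice 1 to 5 had 10.20, 10.24, 10.91, 10.24 and 10.03. All knock-out values thus lay within the wild-type range, which was widened upwards by wild-type mouse 3. The difference was -0.10 (95% confidence interval -0.39 to 0.20, limma adjusted p = 0.691), and it turned to 0.05 without that mouse (limma adjusted p = 0.664).

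Of the nesprin genes, Syne2 (ENSMUSG00000063450, chromosome 12, 75818134 to 76110926) was the only one of the 10 genes whose genotypes did not overlap, which was so for 14.4% of all tested genes. Its knock-out values were 9.50, 9.43, 9.47, 9.51 and 9.49 in mice 1 to 5. The wild-type values were 9.73, 9.64, 9.54, 9.57 and 9.90. Knock-out mice thus lay in a narrow band just under the lowest wild-type mouse. The difference of -0.20 (SE 0.09, 95% confidence interval -0.39 to -0.01) did not pass over all tested genes (limma adjusted p = 0.168), while an exact permutation test of this gene alone gave p = 0.00794, the smallest that 5 against 5 mice allow. It passed with the trends on exonic length and GC content removed from each mouse (-0.30, limma adjusted p = 0.021, where 17.3% of all genes passed). With sample weights it also passed (-0.21, limma adjusted p = 0.0149, where 29.5% of all genes passed). The wild-type value nearest to the knock-outs was that of mouse 3, and without it the adjusted p was 0.0575 (limma).

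Syne1 (ENSMUSG00000096054, chromosome 10, 5020917 to 5551482) encodes nesprin-1, and per exonic length its transcript made up 65.1% ± 3.42 (SD, n = 5) of the summed nesprin transcripts in wild-type and 65.1% ± 2.66 (SD, n = 5) in knock-out muscle. Its rlog values in knock-out mice 1 to 5 were 11.65, 11.21, 11.30, 11.31 and 11.12. In wild-type mice 1 to 5 they were 11.73, 11.76, 11.20, 11.07 and 11.50. Mice of both genotypes spread over the same range. The difference was -0.13 (95% confidence interval -0.45 to 0.18, limma adjusted p = 0.585), and it passed only with sample weights (-0.39, limma adjusted p = 0.00685). That setting gave wild-type mice 3 and 4, both at the low end for Syne1, weights of 0.1 and 0.275. Knock-out mice 4 and 5 had weights of 4.21 and 3.22, mouse 5 having the lowest knock-out value. Knock-out mouse 1, with the highest, had a weight of 1.02. Syne3 (ENSMUSG00000054150, chromosome 12, 104929933 to 105009809), the nesprin that binds plectin, had a wild-type rlog mean above that of only 16.1% of tested genes. It ranged from 5.02 to 5.50 in knock-out and from 4.55 to 5.44 in wild-type mice, with a difference of 0.13 (95% confidence interval -0.24 to 0.49, limma adjusted p = 0.663). Gm10097, a gene on the opposite strand within Syne1, had a mean of 3.31, just under the limit for testing.

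The SUN genes did not pass either. Sun1 (ENSMUSG00000036817, chromosome 5, 139200637 to 139249840) had rlog values of 10.98, 10.87, 10.87, 10.86 and 10.81 in knock-out mice 1 to 5. Wild-type mice 1 to 5 had 10.81, 10.82, 10.75, 10.54 and 10.82. In 4 of the 5 knock-out mice Sun1 lay above all wild-type mice, by a small margin. The difference was 0.13 (95% confidence interval -0.05 to 0.31, limma adjusted p = 0.337), and it was the same without wild-type mouse 3. Taken alone, Sun1 had a p of 0.0238 in a two-sided exact permutation test over the 10 mice, not adjusted for the number of genes. Sun2 (ENSMUSG00000042524, chromosome 15, 79724070 to 79742536) ranged from 12.40 to 12.81 in knock-out and from 12.49 to 12.80 in wild-type mice. Its difference was -0.06 (95% confidence interval -0.27 to 0.15, limma adjusted p = 0.745). Per exonic length Sun2 made up 82.2% ± 2.02 (SD, n = 5) of the summed transcripts of both genes in knock-outs, against 84.0% ± 1.85 (SD, n = 5) in wild types. For the 9 genes other than Lmna, the 95% confidence intervals together ran from -0.45 to 0.49.

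**Figure D3:**
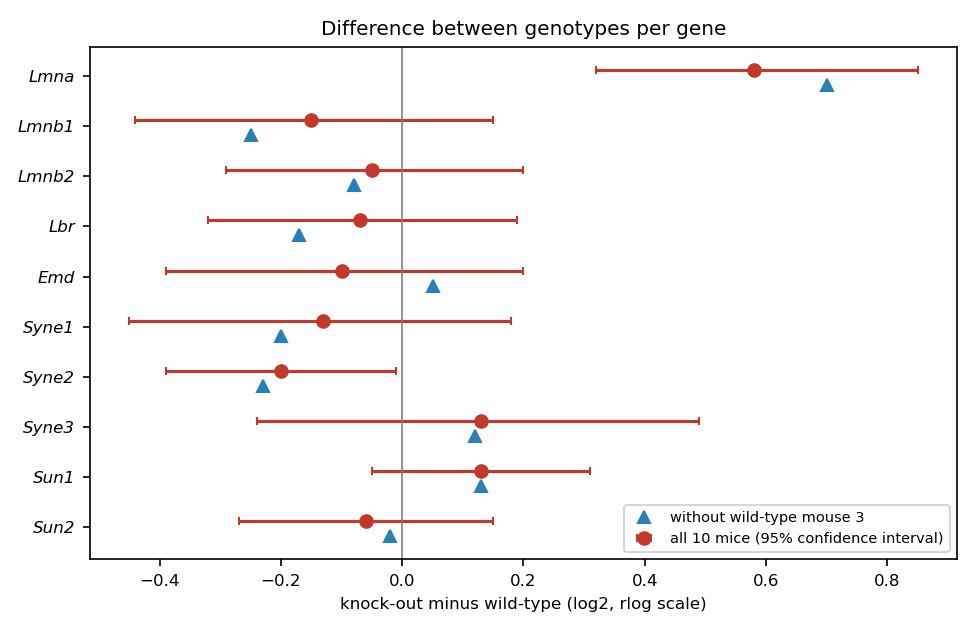
Knock-out minus wild-type difference (log2, rlog scale) of the 10 genes, red points with 95% confidence intervals from limma over all 10 mice and blue triangles without wild-type mouse 3. The interval of Lmna (0.32 to 0.85) lies well above 0, that of Syne2 (-0.39 to -0.01) just under it, and the others include 0.

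To compare functionally paired genes independently of a scaling factor of a mouse, differences of 2 rlog values were taken within each mouse. Lmna minus the mean of Lmnb1 and Lmnb2 was 4.95, 4.91, 4.84, 5.07 and 5.02 in knock-out mice 1 to 5 and 4.09, 4.05, 5.01, 4.27 and 3.98 in wild-type mice 1 to 5. Wild-type mouse 3 lay among the knock-out mice and the other wild-type mice lay below all of them. The genotypes differed by 0.68 (SE 0.19), or 1.6-fold, with an exact permutation p of 0.0317 and 0.0794 after adjustment over the 4 pairs. For Lmna minus Lbr the difference was 0.65 (SE 0.25, exact permutation p = 0.0397, adjusted p = 0.0794). Without wild-type mouse 3 these differences were 0.86 and 0.87, and both passed (exact permutation test, adjusted p = 0.0317 for both). Sun1 minus Sun2 differed by 0.19 (SE 0.12, exact permutation p = 0.175, adjusted p = 0.233). Syne1 minus Syne2 differed by 0.06 (SE 0.15, exact permutation p = 0.69, adjusted p = 0.69), which is less than the SD between mice of either genotype.

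**Figure D4:**
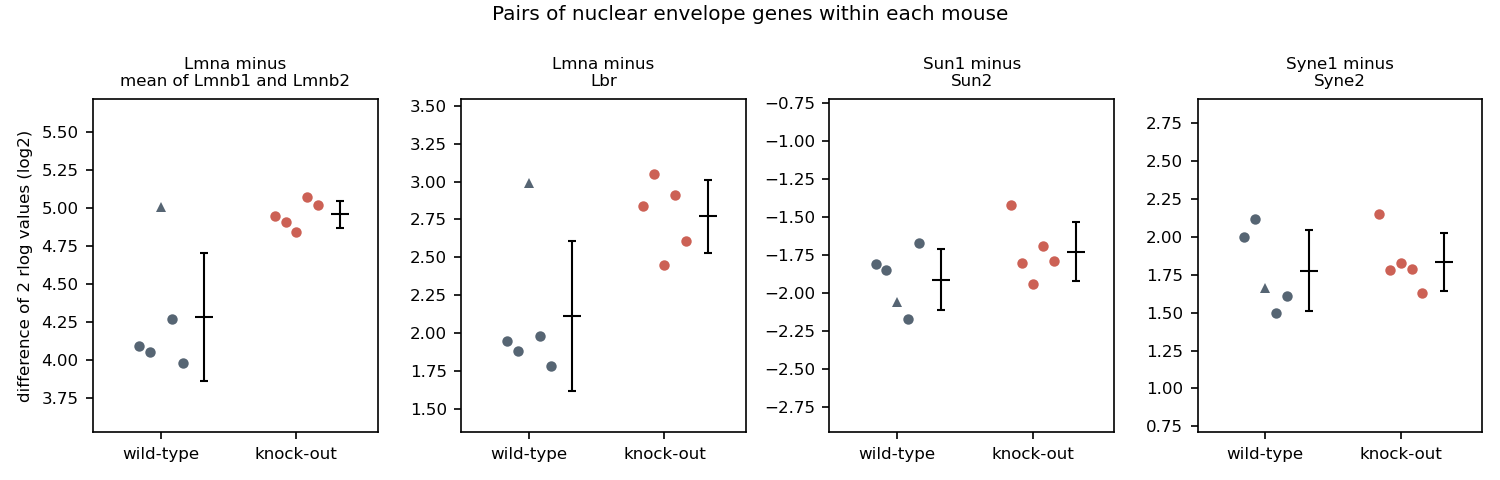
Differences of 2 rlog values within each mouse (log2) for 4 pairs of genes in 5 wild-type (dark, triangle for mouse 3) and 5 desmin knock-out (red) mice, with mean ± SD. Lmna relative to B-type lamins lies between 4.84 and 5.07 in knock-out mice and between 3.98 and 4.27 in wild-type mice other than mouse 3, which has 5.01, and the genotypes overlap for the SUN and nesprin pairs.

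Beyond the 10 genes, 70 further genes in 5 lists were considered, of which 66 were tested. These are genes of the nuclear envelope, of lamin processing and of cytoskeletal partners of the LINC complex, called other nuclear envelope genes below. At an adjusted p under 0.05 (limma), 5 were higher and 2 were lower, or 10.6% against the background of 13.7%, and their median difference was -0.02. Among the genes listed as cytoskeletal partners of the LINC complex, 2 of 13 were higher and none lower (median 0.16). RNA values do not show whether the product of a listed gene, such as Fhl1, binds the complex. Fhl1, a four-and-a-half LIM domain gene of muscle whose variants also cause Emery-Dreifuss dystrophy, had 17.28, 17.24, 17.26, 17.44 and 17.60 in knock-out mice 1 to 5 against 16.21, 16.40, 15.89, 15.60 and 16.15 in wild-type mice 1 to 5. The genotypes were far apart, with a difference of 1.31 (SE 0.16, limma adjusted p = 9.9e-05), or 2.49-fold. Macf1, a spectraplakin that links actin and microtubules, was higher by 0.49 (SE 0.14, limma adjusted p = 0.0385). Plec, whose product plectin joins nesprin-3 to desmin, had 14.11 ± 0.14 in knock-out and 14.13 ± 0.22 in wild-type muscle (SD, n = 5 each, limma adjusted p = 0.915).

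Among 17 other inner nuclear membrane and lamin-binding proteins, 2 were higher and 1 was lower (median -0.04). Tmem43, which encodes the lamin- and emerin-binding protein LUMA, had 11.41, 11.31, 11.40, 11.41 and 11.46 in knock-out mice 1 to 5 and 10.76, 10.91, 10.94, 10.91 and 10.36 in wild-type mice 1 to 5. The genotypes did not overlap, and wild-type mouse 3 lay close to wild-type mice 2 and 4. The difference was 0.62 (SE 0.11, limma adjusted p = 0.00206), or 1.53-fold. Lmo7, an emerin-binding protein, was higher by 0.37 (SE 0.10, limma adjusted p = 0.0261). Plpp7, which encodes the muscle-enriched nuclear envelope protein NET39, was lower with a difference of -0.46 (SE 0.12, limma adjusted p = 0.0253), without overlap between genotypes.

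None of the 5 enzymes that process prelamin A and B-type lamins passed, all with differences between -0.14 and -0.02. Among them, Zmpste24, the protease that matures lamin A, had 10.45 ± 0.08 in knock-out and 10.50 ± 0.18 in wild-type muscle (SD, n = 5 each). Of 29 nuclear pore genes, 28 were tested, with 1 higher (Seh1l, 0.30, limma adjusted p = 0.0421) and 1 lower (Nup133, 9.52 ± 0.03 in knock-out and 9.86 ± 0.12 in wild-type mice, SD, n = 5 each, limma adjusted p = 0.0166). Of 6 other KASH and SUN genes, 3 were tested and none passed, and Sun3 and Sun5, known from the testis, were at 0 in all mice. Fhl1 and Tmem43 passed in each of the 18 alternative fits, whereas Seh1l passed in 6, Macf1 in 10, Lmo7 in 11, Plpp7 in 12 and Nup133 in 17 of them.

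**Figure D5:**
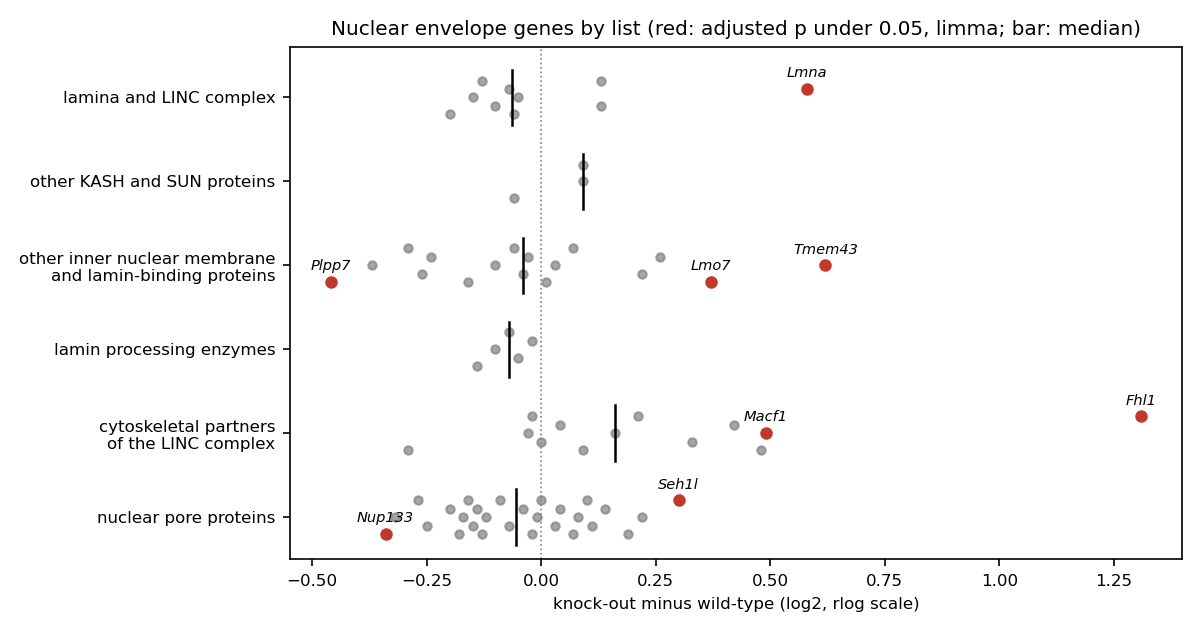
Knock-out minus wild-type difference (log2, rlog scale) of the tested genes in each list of nuclear envelope genes, lamin processing enzymes or cytoskeletal partners. Red points have an adjusted p under 0.05 (limma) and black bars mark list medians. Lmna (0.58), Tmem43 (0.62) and Fhl1 (1.31) are furthest to the right, while the list medians lie between -0.07 and 0.16.

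Levels in whole muscle come from fibers and from the other cells between them, and in such samples fewer cells of a type and less RNA per cell cannot be told apart. Skeletal muscle fiber markers were the most abundant of the marker lists, with summed levels (2 to the power of rlog) of 4620000 to 5280000 in knock-out and 5390000 to 10700000 in wild-type mice, the top value being wild-type mouse 3. Of these 10 markers 1 was higher and 2 were lower (median -0.41), against 7.7% higher and 5.99% lower of all tested genes. Without wild-type mouse 3 there were 2 higher and 2 lower, and across all alternative settings 0 to 2 higher and 0 to 2 lower. Fibroblast markers had summed levels of 16600 to 25200 in knock-out and 12800 to 23400 in wild-type mice. Of these 10 genes 5 were higher, against 7.7% of all tested genes, and none was lower (median 0.39). This count was 3 without wild-type mouse 1 or 3 and 2 without knock-out mouse 1, 2, 4 or 5 or wild-type mouse 2 or 4. It was also 2 with median centring, with a single prior variance or with no limit on expression. Endothelial markers had summed levels of 4670 to 6310 in knock-out and 6500 to 8660 in wild-type mice. Of these 10 genes 6 were lower, against 5.99% of all tested genes, and none was higher (median -0.45). The count of lower genes was 4 to 5 with 1 mouse left out and 3 to 6 across all alternative settings. Macrophage markers had none of 10 passing (median 0.03), with sums of 2690 to 3780 and 2750 to 3520. Their part in the difference of Lmna was not tested.

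Markers of proliferating cells, which are known to carry more Lmnb1, had 1 of 7 tested genes higher (Birc5, 0.67) and a median of 0.42, with sums of 437 to 606 in knock-out and 505 to 683 in wild-type mice. Satellite cell markers had 1 of 8 genes lower (Myod1, -0.47) and a median of 0.02, with 5 positive and 3 negative differences. Sums were 1170 to 1360 in knock-out and 1410 to 1760 in wild-type mice, and Myod1 was the most abundant gene in them. Pax7 had a difference of 0.01. Erythroid markers had 2 of 5 tested genes lower. Their sums were 2880 to 4350 in knock-out and 4100 to 10600 in wild-type mice, the highest again in wild-type mouse 3. Over all tested genes, 7.7% were higher and 5.99% lower. Across the alternative settings, 0 to 5 proliferating cell markers were higher, while 0 to 2 satellite cell and 0 to 4 erythroid markers were lower. No Schwann cell, adipocyte or lymphocyte marker passed among the 7, 8 and 1 tested, and no marker of any list was at 0 in all mice. Summed levels were 2010 to 2740 and 1670 to 2880 for Schwann cell markers, 7530 to 9660 and 7270 to 10800 for adipocyte markers and 65.9 to 87.7 and 52.1 to 96.3 for lymphocyte markers, in knock-out and wild-type mice.

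Among the tested genes outside the 10 whose values ran closest to those of Lmna over the 10 mice were Ntf5, Arl6ip5, Uap1l1 and Vat1. Their deviations from their own means differed from those of Lmna by 0.060 to 0.084 on the log2 scale on average, compared with a median of 0.361 over all tested genes. As a description, this likeness rests on 10 mice and includes the difference between the genotypes and the high value of wild-type mouse 3.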

How the data were processed

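RNA of calf muscle (gastrocnemius in the labels, gastrocnemius and plantaris in the text of the study) of 5 desmin knock-out and 5 wild-type mice was sequenced. Per the submitters' processing notes, the authors used cutadapt 2.5, STAR 2.5.4a, Subread 1.6.1 with featureCounts, and DESeq2, on GRCm38. In the study's methods the authors used featureCounts and DESeq2 on Galaxy, with a featureCounts version other than that of Subread in the notes. Whether counting used strand and how rlog was set are not given in the sources used here. The authors deposited log2-scale rlog values and no counts were used, so depth and counting error are unknown. Of the 54232 genes, 54079 had a symbol in GENCODE M21 (GRCm38).

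Testing was limited to genes averaging log2(10) or more. It used limma 3.58.1 under R 4.3.3 (prior variance following the mean, two-sided, Benjamini-Hochberg adjustment). The script was tested on simulated data with differences of known size. Of these, 31.3% passed at a size of 0.5 log2 units, 92.5% at 1 and 100% at 2, so most differences of 0.5 were missed. Pairs of genes were compared with exact permutation tests. The members and gene lists were chosen with earlier results of these data known. Genes were named by a rule that took all 10 members and Des, up to 4 genes per nuclear envelope list with the smallest adjusted p under 0.05, and the 5 genes with the smallest mean absolute difference from Lmna, of which 1 is not reported here. Birc5, Myod1, Plec, Zmpste24, Gm10097, Sun3 and Sun5 were named after their values were seen. Older symbols were also searched for Irag2, Kash5 and Nup58. Alternatives were other limits, scalings and variance priors, weights per mouse estimated by limma, a block on the replicate number, removal of trends on exonic length and GC content (14277 genes), each mouse left out and an adjusted p under 0.01.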

Additional observations from a re-analysis of the deposited data

Results flagged for a closer look

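Among 30 groups of 5 mice (each genotype for the 10 genes, Des and the 4 pairs of genes), 7 contained 1 mouse well separated from its group, and about 1.5 such groups arise by chance. In 6 of the 7 it was wild-type mouse 3. It was the highest wild-type mouse for Lmna (12.05 against 11.34 to 11.55), for Emd (10.91 against 10.03 to 10.24) and for Des (17.74 against 16.10 to 16.55), and the lowest for Lbr (9.06 against 9.56 to 9.58). It was also highest for Lmna minus the mean of Lmnb1 and Lmnb2 (5.01 against 3.98 to 4.27) and for Lmna minus Lbr (2.99 against 1.78 to 1.98). The remaining one was wild-type mouse 4 with a low Sun1 value (10.54 against 10.75 to 10.82). These groups are not independent, since the pairs reuse the values of single genes in the same mice, so the count of 7 holds some values more than once.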

How the results depend on the processing

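Lmna passed in each of 18 alternative fits and at an adjusted p under 0.01, and 1 member was higher in each of these. No member was lower in the main analysis, 3 were with sample weights (Lmnb1 -0.30, Syne1 -0.39 and Syne2 -0.21) and 1 with length and GC trends removed (Syne2 -0.30). In either direction, 29.5% of all tested genes passed with sample weights and 17.3% with these trends removed, against 13.7% in the main analysis. Members with differences near 0 changed direction. With length and GC trends removed this was Lmnb2 (0.033) and Sun2 (0.0096), with quantile normalization Sun2 (0.015), and with sample weights Emd (0.031) and Syne3 (-0.014). With 1 mouse left out it was Lmnb2 (-0.11 to 0.00034), Emd (-0.17 to 0.052), Syne3 (-0.019 to 0.20) and Syne1 minus Syne2 (-0.02 to 0.15). The single values were 0.00034 without knock-out mouse 5, 0.052 without wild-type mouse 3, -0.019 without wild-type mouse 4, and for the pair -0.02 without knock-out mouse 1 and -0.01 without wild-type mouse 4. Lmna minus the B-type lamins was 0.81 and Lmna minus Lbr 0.74 with quantile normalization, where both passed, and they lay between 0.61 and 0.86 and between 0.57 and 0.87 with 1 mouse left out, passing only without wild-type mouse 3.

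Over all genes, 2093 were higher and 2127 lower with sample weights, against 1100 and 856 in the main analysis, and 623 and 371 at an adjusted p under 0.01. With 1 mouse left out, 827 to 1335 were higher and 560 to 1159 lower, the lowest count of lower genes being without knock-out mouse 5. Median centring gave 942 higher and 979 lower genes, and other scalings moved the median of all genes by at most 0.042. Of the other nuclear envelope genes, 2 were higher and 1 lower without a limit on expression, 2 and 0 at an adjusted p under 0.01, 12 were lower with sample weights and 6 with trends removed. With 1 mouse left out, 2 to 6 were higher and 1 to 4 lower. There were 2 higher without knock-out mouse 1, 2 or 3 and 3 without knock-out mouse 4 or wild-type mouse 4 or 5. There was 1 lower without knock-out mouse 1, 2, 3 or 5 and there were 4 without wild-type mouse 3. The cause of these shifts was not tested. Replicate numbers did not pair the mice (correlations of same-numbered mice between -0.219 and 0.067, and 0 knock-out mice closest to their own number). With the replicate block 1 member was higher, 913 genes were higher and 666 lower, and 1 of the other nuclear envelope genes was lower, while the sign-flip test of 5 pairs cannot pass the threshold.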
